A study of Mus musculus with 41 samples.

Results

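Lesions in mice given interleukin-33 (IL-33) and competent for group 2 innate lymphoid cells (ILC2s) were set against lesions of the ILC2-deficient genotype given PBS in place of IL-33, in mice carrying transplanted uterine tissue as a model of endometriosis, in which tissue like the uterine lining grows outside the uterus. The comparison used 8 of the 41 RNA sequencing libraries of the series, chosen by genotype and treatment in the labels: 4 IL-33-treated Id2fl/fl lesions (IL-33 floxed lesions below) and 4 PBS-treated Nmur1iCre-eGFP Id2fl/fl lesions (PBS deficient lesions below). Each lesion grew from a 4 mm punch of donor uterus that was glued inside the abdomen of a recipient, onto the peritoneal wall, in mice aged 12 to 16 weeks. From day 7 the recipients received 3 injections of 1 µg IL-33 or of PBS into the peritoneal cavity over 6 days.

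Id2fl/fl mice carry Id2 alleles flanked by recombination sites but no Cre, so their ILC2s are intact. Nmur1iCre-eGFP Id2fl/fl mice also carry a Cre recombinase with eGFP expressed from Nmur1, a receptor gene used by ILC2s, and lose Id2 in cells that use this driver, which makes them the ILC2-deficient genotype of the study. All 8 lesions thus carried floxed Id2, while IL-33, ILC2s and the Cre transgene changed together and cannot be told apart within the comparison. The labels give the genotype of the fragment, and the recipients of these lesions were taken to have the same one. Other IL-33-treated groups of 4 lesions each are used below to set levels beside the comparison: Nmur1iCre-eGFP without floxed Id2 in its label (Cre controls), C57Bl/6J (wild type), deficient lesions given 250000 ILC2s the day before IL-33, deficient lesions given IL-33 alone, and deficient lesions given IL-33 with an added PBS injection.

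IL-33 is an alarm signal released by damaged barrier and stromal cells. It binds the receptor ST2, encoded by Il1rl1, together with the co-receptor encoded by Il1rap, and ILC2s respond by secreting IL-5 and IL-13. IL-5 sustains eosinophils, and IL-13 signals through IL-4 receptor alpha and the transcription factor STAT6 in macrophages, stromal cells and epithelia, where it induces chitinase-like proteins, resistin-like proteins and eosinophil-attracting chemokines.

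The 8 libraries held 38.5 to 49.5 M counts in IL-33 floxed lesions and 41.1 to 70.5 M counts in PBS deficient lesions, against 28.9 to 70.5 M counts over all 41 libraries. On the first principal component of the 8 libraries, which held 42.2% of the variance of the 2000 most variable genes, replicate 3 of the IL-33 floxed lesions lay at -101 and replicate 3 of the PBS deficient lesions at -33.0, while the other 6 lay between 15.7 and 35.8. The second component held 29.7% and placed the 4 IL-33 floxed lesions between 7.49 and 51.5 and the 4 PBS deficient lesions between -61.9 and -5.85. The library names of each group form a run of their own, so any effect tied to such a run and the effect of the group cannot be told apart. Markers of the labelled tissue were present: 18 endometrial epithelial genes took 0.00764% to 0.346% of counts in IL-33 floxed lesions and 0.0297% to 0.164% in PBS deficient lesions, lowest in replicate 3 of each group, and 13 endometrial stromal genes took 0.183% to 0.231% and 0.238% to 0.302%. Skeletal muscle genes of the underlying wall took 15.0%, 14.8%, 9.73% and 9.67% of counts in the 4 IL-33 floxed lesions and 6.35%, 8.51%, 0.893% and 6.60% in the 4 PBS deficient lesions. These ranges did not overlap, and the part of this muscle share in the results below was not tested. A list of 14 liver genes took at most 0.000314% in any of the 8 libraries.

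Id2, the floxed gene and a regulator required for innate lymphoid cells, had 38.8, 43.1, 49.2 and 45.6 CPM (counts scaled to a common library size) in the 4 IL-33 floxed lesions and 48.9, 43.7, 83.1 and 48.0 CPM in the 4 PBS deficient lesions. The groups overlapped, and the difference of -0.34 ± 0.26 (log2 fold change ± SE, IL-33 floxed over PBS deficient) did not pass the test (adjusted p = 0.424). Since many cell types of a lesion express Id2, this level does not check its loss in ILC2s.

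Across the 21249 genes tested, 2014 differed at an adjusted p under 0.05 (edgeR quasi-likelihood test, Benjamini-Hochberg), 9.48% of all genes. Of these, 982 were higher (4.62% of genes) and 1032 lower (4.86%) in IL-33 floxed lesions, 267 and 221 of them by at least 2-fold, and the median log2 fold change of all genes was 0.03. The 4.62% and 4.86% are the shares of all genes to set beside the counts of called list members below. For 1825 of the called genes the 4 lesions of one group lay wholly outside the range of the other, against 24.0% of all genes (14.1% with the IL-33 floxed lesions above and 9.87% with them below). The number of calls depended on single libraries. It was 680 without replicate 1 of the PBS deficient lesions, 1127 without their replicate 3, and 925, 1202 and 1223 without replicates 2, 4 and 1 of the IL-33 floxed lesions. No gene called in both the full fit and any of these fits changed sign.

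**Figure D1:**
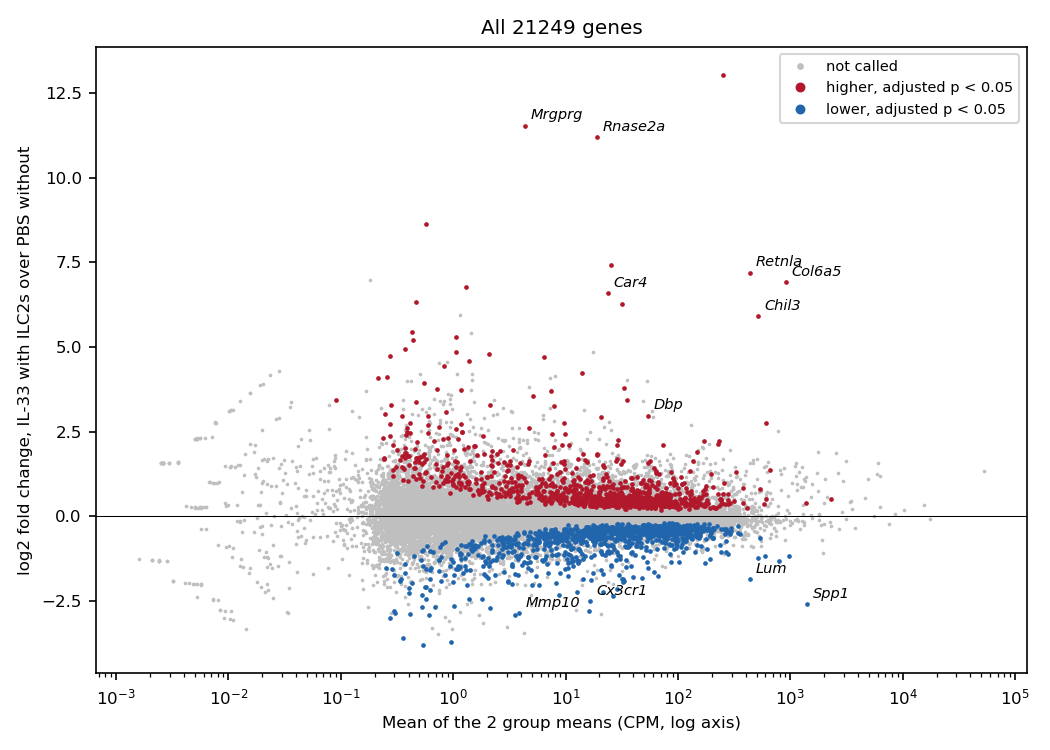
Log2 fold change of IL-33 floxed over PBS deficient lesions (vertical axis) against mean level in CPM on a log axis (horizontal axis) for the 21249 genes, with genes higher in red, lower in blue and not called in grey. Retnla and Col6a5 lie at 7.20 and 6.91, and Spp1 at -2.59; values of genes with few or no reads in PBS deficient lesions, such as Mrgprg and Rnase2a, are fitted values and no bound.

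The 10 largest rises among called genes with a mean of at least 1 CPM and groups that did not overlap were Chil4, Mrgprg, Rnase2a, Retnla, Col6a5, Gm49087, Car4, Ighg3, Chil3 and 4930542D17Rik. RefSeq promoter windows (GRCm38.p6, 250 bases before to 50 after the start) were found for 8 of these 10. They were searched for TTC and GAA with 4 bases between, the spacing preferred by STAT6, and for TTCNNNGAA, with 3 bases between, the spacing of other STAT proteins. Both read the same on both strands, and no matches overlapped. Of the 8 windows, 5 held a match of either spacing, against 14.6% of all 32851 windows. The spacing of 4, preferred by STAT6 and held by 6.95% of all windows, stood only in those of Retnla and Mrgprg. The spacing of 3, held by 8.30%, stood in those of Mrgprg, Col6a5, Chil3 and Chil4. The 5 are shown 5′ to 3′ with the matches in capitals, because they belong to genes that led the response. In Chil3 and Chil4 the same 9 letters stand in capitals, and the aligned windows shared 251 of 329 columns (76.3%). Rnase2a, Car4 and 4930542D17Rik had no match, nor had Il5, Il13 and Ear2. The GATA letters AGATAA or TGATAA, on either strand, occurred in the windows of Chil3, Chil4 and Il13 and in 18.6% of all windows.
Retnla, chr16:48842359-48842658, plus strand: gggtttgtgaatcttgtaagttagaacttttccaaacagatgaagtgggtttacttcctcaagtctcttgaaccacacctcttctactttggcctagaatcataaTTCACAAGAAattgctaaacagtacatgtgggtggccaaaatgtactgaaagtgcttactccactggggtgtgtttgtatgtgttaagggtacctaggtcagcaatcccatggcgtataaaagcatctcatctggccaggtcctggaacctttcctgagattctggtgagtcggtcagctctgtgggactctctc
Mrgprg, chr7:143766944-143767243, minus strand: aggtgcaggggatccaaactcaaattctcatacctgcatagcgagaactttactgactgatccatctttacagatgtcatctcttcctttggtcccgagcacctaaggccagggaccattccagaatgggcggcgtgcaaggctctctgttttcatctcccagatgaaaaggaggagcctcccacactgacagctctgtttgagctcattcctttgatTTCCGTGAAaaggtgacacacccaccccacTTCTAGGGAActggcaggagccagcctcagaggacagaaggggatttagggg
Col6a5, chr9:105960594-105960893, minus strand: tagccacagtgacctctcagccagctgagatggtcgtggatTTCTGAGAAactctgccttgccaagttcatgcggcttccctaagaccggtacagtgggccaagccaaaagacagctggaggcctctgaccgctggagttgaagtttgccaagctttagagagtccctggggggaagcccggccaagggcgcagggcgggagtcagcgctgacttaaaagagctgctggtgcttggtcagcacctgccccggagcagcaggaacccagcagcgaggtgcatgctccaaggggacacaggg
Chil3, chr3:106167515-106167814, minus strand: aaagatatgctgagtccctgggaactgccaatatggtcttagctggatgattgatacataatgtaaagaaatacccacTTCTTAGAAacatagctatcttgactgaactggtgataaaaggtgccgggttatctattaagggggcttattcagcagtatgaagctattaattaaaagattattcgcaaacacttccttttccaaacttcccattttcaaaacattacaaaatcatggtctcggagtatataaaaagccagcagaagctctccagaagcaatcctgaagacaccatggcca
Chil4, chr3:106219430-106219729, minus strand: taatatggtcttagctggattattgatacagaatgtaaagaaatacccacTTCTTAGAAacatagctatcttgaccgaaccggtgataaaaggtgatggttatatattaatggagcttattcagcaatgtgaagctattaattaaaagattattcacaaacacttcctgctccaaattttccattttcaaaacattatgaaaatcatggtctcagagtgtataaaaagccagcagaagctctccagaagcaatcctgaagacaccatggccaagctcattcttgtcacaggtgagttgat

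Of the IL-33 pathway, only the gene of the receptor ST2 was called. Il1rl1, which encodes ST2, had 12.4, 17.2, 21.9 and 20.1 CPM in IL-33 floxed lesions and 4.79, 3.68, 12.0 and 6.49 CPM in PBS deficient lesions. Every IL-33 floxed lesion lay above every PBS deficient lesion, a rise of 1.41 ± 0.43 (adjusted p = 0.0344). The call was lost without replicate 2, 3 or 4 of the IL-33 floxed lesions or replicate 1, 2 or 4 of the PBS deficient lesions (adjusted p 0.0653 to 0.115), and at an adjusted p of 0.050 with upper-quartile scaling. Il33 itself had 9.98, 11.8, 44.2 and 30.9 CPM in IL-33 floxed lesions and 32.7, 29.5, 102 and 51.2 CPM in PBS deficient lesions. The groups overlapped (-1.16 ± 0.44, adjusted p = 0.0864, and 0.0281 without replicate 3 of the IL-33 floxed lesions). Il1rap, the co-receptor, differed by -0.53 ± 0.37 (adjusted p = 0.387). Of the 8 genes of the IL-33 receptor pathway 1 was called higher and none lower, with a median of -0.09.

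Of 20 genes that mark ILC2s, 4 were called, all higher in IL-33 floxed lesions, where 4.62% of all genes were called higher. Nmur1, the neuromedin U receptor from which the Cre is driven, had 0.209, 0.651, 0.258 and 1.80 CPM in IL-33 floxed lesions and 0.0127, 0, 0.0192 and 0.0497 CPM in PBS deficient lesions. All IL-33 floxed lesions were higher, with replicate 4 the highest, and the rise was 4.94 ± 1.10 (adjusted p = 0.00582), 3.95 without that replicate and 5.69 without replicate 4 of the PBS deficient lesions. limma-voom did not call it (adjusted p = 0.0732), and since the Cre is driven from this gene, an effect of the allele and one of the cells cannot be told apart within the comparison. Against PBS deficient lesions, Nmur1 was also called higher in Cre controls (5.32, adjusted p = 0.0046), which carry the same Cre, and in wild type (5.27, adjusted p = 0.00419). Gata3, the transcription factor of type 2 lymphocytes, had 5.18, 4.92, 5.67 and 7.65 CPM in IL-33 floxed lesions and 1.64, 1.96, 2.64 and 1.62 CPM in PBS deficient lesions. It was higher in every IL-33 floxed lesion (1.57 ± 0.39, adjusted p = 0.012, and 0.0522 without replicate 1 of the PBS deficient lesions). Klrg1, a receptor of activated ILC2s, averaged 1.64 ± 0.0968 CPM in IL-33 floxed lesions and 0.644 ± 0.356 CPM in PBS deficient lesions (SD, n = 4 each), with no overlap. Its call (1.35 ± 0.44, adjusted p = 0.0457) held only without replicate 3 of the PBS deficient lesions and was lost without any other single library (0.0696 to 0.146). Crlf2, a subunit of the TSLP receptor, was higher by 0.75 ± 0.23 (adjusted p = 0.0366), and its call was lost without replicate 2, 3 or 4 of the IL-33 floxed lesions or replicate 1 or 2 of the PBS deficient lesions (0.0614 to 0.133). Il9r, the IL-9 receptor (0.96 ± 0.34, adjusted p = 0.0675), and Il2ra, the IL-2 receptor alpha chain (0.50 ± 0.42, adjusted p = 0.492), did not pass the test. The median of the 20 ILC2 genes was 0.70. Between IL-33 floxed lesions and deficient lesions given IL-33, Gata3 (1.41, adjusted p = 0.0232) and Il9r (1.72, adjusted p = 0.00461) were called. Nmur1 (1.96, adjusted p = 0.159), Klrg1 (0.67, adjusted p = 0.331) and Il2ra (0.47, adjusted p = 0.501) were not. The Gata3 call of that contrast was lost without the libraries that held liver genes (adjusted p = 0.0737). In whole lesions, more cells of a type and more RNA per cell cannot be told apart.

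The ILC2 cytokines rose from very low levels. Il13 had 0.438, 1.05, 1.05 and 1.17 CPM in IL-33 floxed lesions and 0, 0.0226, 0 and 0.0166 CPM in PBS deficient lesions. It had 161 reads in the 4 IL-33 floxed lesions against 2 in the 4 PBS deficient lesions, a ratio of 108 after scaling for depth (exact 95% counting interval 29.4 to 900, adjusted p = 1.59e-06). Il5 had 0.605, 0.283, 0.562 and 0.486 CPM in IL-33 floxed lesions and 0.0254, 0.0451, 0 and 0.0331 CPM in PBS deficient lesions. For both cytokines all 4 IL-33 floxed lesions lay above all 4 PBS deficient lesions, and the rise of Il5 was 4.10 ± 0.58, or 17.2-fold (adjusted p = 8.86e-05). Both calls held without any single library. Tslp, an epithelial and stromal alarm cytokine, was higher by 1.60 ± 0.44 (adjusted p = 0.0196), and this call was lost without replicate 3 of the IL-33 floxed lesions (0.0743) and without replicate 1 (0.0607) or 3 (0.059) of the PBS deficient lesions. Il6, an inflammatory cytokine, was lower by 2.04 ± 0.64 (log2 fold change -2.04, adjusted p = 0.0389), with overlapping groups; its call held without replicate 3 of the IL-33 floxed lesions or replicate 2 of the PBS deficient lesions, and was lost without any other single library (0.0541 to 0.268), with a change of -1.16 without replicate 3 of the PBS deficient lesions. Of the 5 measured genes of the type 2 cytokine list, which also held Il6 and Lif, 3 were thus called higher and 1 lower (Il6). Il4, Il9 and Areg were not analysed here.

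The called receptors and signal transducers of IL-4 and IL-13 split in direction. Il13ra2, the receptor that binds IL-13 without the usual signal and limits its action, had 1.32, 2.09, 3.05 and 1.68 CPM in IL-33 floxed lesions and 0.420, 0.519, 0.212 and 0.0828 CPM in PBS deficient lesions. The groups did not overlap (2.71 ± 0.51, adjusted p = 0.00222). Cish, an inhibitor of cytokine signalling, was higher by 1.44 ± 0.31 (adjusted p = 0.005) with no overlap. Il13ra1, the signalling IL-13 receptor chain, was lower at 29.7, 47.9, 53.9 and 45.8 CPM in IL-33 floxed lesions against 65.8, 50.95, 89.7 and 70.5 CPM in PBS deficient lesions. The ranges of Il13ra1 overlapped, and its change of -0.64 ± 0.21 (adjusted p = 0.0445) was lost with the replicate number as a block (0.0589) and without any single library other than replicate 3 of the IL-33 floxed lesions or replicate 2 of the PBS deficient lesions (0.0755 to 0.173). Socs3, a feedback inhibitor, was lower by 0.89 ± 0.28 (log2 fold change -0.89, adjusted p = 0.0385), and Tyk2, a Janus kinase, higher by 0.43 ± 0.13 (adjusted p = 0.0377); both overlapped between groups. The Socs3 call was lost without replicate 1, 2 or 4 of the IL-33 floxed lesions or replicate 1 or 3 of the PBS deficient lesions (0.0538 to 0.283), and the Tyk2 call without replicate 2, 3 or 4 of the IL-33 floxed lesions or replicate 1, 2 or 4 of the PBS deficient lesions (0.0624 to 0.146). Il4ra, the shared receptor chain, differed by -0.69 ± 0.26 (adjusted p = 0.0898) and Stat6 by 0.04 ± 0.12 (adjusted p = 0.878). Of 13 such genes 3 were called higher and 2 lower (4.62% and 4.86% of all genes), with a median of 0.04.

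**Figure D2:**
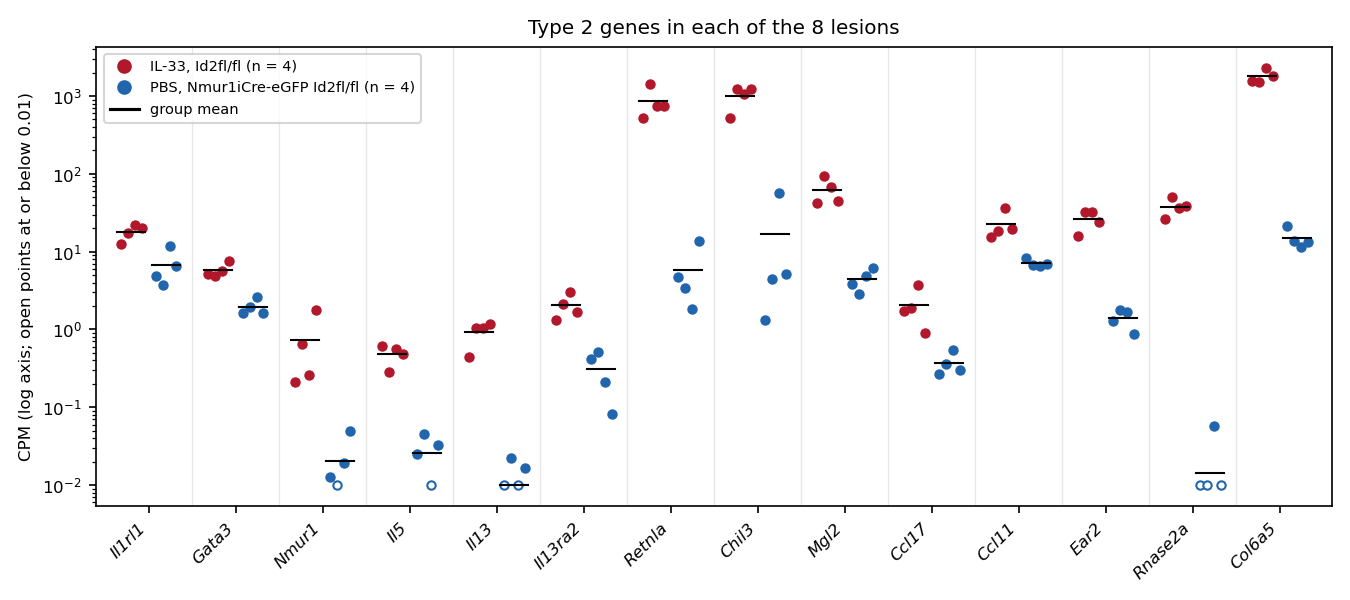
Levels of 14 genes of the IL-33 and type 2 response in each of the 8 lesions, in CPM on a log axis, with IL-33 floxed lesions in red left of PBS deficient lesions in blue, black lines for group means and open points at or below 0.01 CPM. For every gene shown, all 4 red points lie above all 4 blue points.

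Genes on the list of alternatively activated macrophages held some of the largest rises. Retnla, the secreted resistin-like alpha, had 528, 1440, 744 and 746 CPM in IL-33 floxed lesions and 4.70, 3.39, 1.83 and 13.6 CPM in PBS deficient lesions. The lowest IL-33 floxed lesion was far above the highest PBS deficient lesion, and the rise was 7.20 ± 1.00, or 146.7-fold (adjusted p = 7.39e-05), and 8.03 without replicate 4 of the PBS deficient lesions. Chil3, which encodes the chitinase-like protein Ym1, had 527, 1231, 1050 and 1217 CPM in IL-33 floxed lesions and 1.31, 4.45, 56.3 and 5.23 CPM in PBS deficient lesions. It was 59.8-fold higher (5.90 ± 1.10, adjusted p = 0.00214), with replicate 3 the highest of the PBS deficient lesions and a rise of 8.10 without it. Chil4, the neighbouring gene for Ym2, was far more uneven, with 36.9, 1894, 0.796 and 81.7 CPM in IL-33 floxed lesions and 0, 0.0451, 0.154 and 0.0497 CPM in PBS deficient lesions. Replicate 2 carried most of its IL-33 floxed level, and the fitted rise of 13.02 ± 2.46 (adjusted p = 0.00222) was 9.36 without it and 13.98 without replicate 3 of the PBS deficient lesions; limma-voom did not call Chil4 (adjusted p = 0.355). Endometrial epithelial genes took 0.0852%, 0.346%, 0.00764% and 0.118% of counts in IL-33 floxed replicates 1 to 4, the rank order of Chil4. General macrophage and monocyte genes took 0.214%, 0.242%, 0.492% and 0.308% in these replicates. The cell source of Chil4 was not tested. Reads of Chil3 and Chil4 can be shared or lost between these near-identical genes. Mgl2, a lectin of alternatively activated macrophages and dendritic cells, had 42.3, 92.7, 67.6 and 44.5 CPM in IL-33 floxed lesions and 3.83, 2.82, 4.93 and 6.21 CPM in PBS deficient lesions, without overlap (3.80 ± 0.61, adjusted p = 0.000501).

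Other genes used as markers of these macrophages changed less or were not called. Clec10a, the related lectin, was higher without overlap by 1.62 ± 0.47 (adjusted p = 0.0287), a call lost without replicate 2 or 3 of the IL-33 floxed lesions or replicate 1, 2 or 3 of the PBS deficient lesions (0.0529 to 0.0875). Cd163, the haemoglobin scavenger receptor, had 28.5, 45.9, 86.4 and 32.9 CPM in IL-33 floxed lesions and 7.08, 7.54, 14.2 and 12.2 CPM in PBS deficient lesions. All IL-33 floxed lesions were higher (2.24 ± 0.67, adjusted p = 0.0333), and the Cd163 call held without replicate 1 or 4 of the IL-33 floxed lesions and was lost without any of the other 6 libraries (0.0551 to 0.106). Arg1, which encodes arginase 1, had 79.9, 271, 183 and 124 CPM in IL-33 floxed lesions and 21.9, 14.6, 158.1 and 52.1 CPM in PBS deficient lesions. Replicate 3 of the PBS deficient lesions reached into the other group, and the difference of 1.42 ± 0.66 did not pass the test (adjusted p = 0.171, and 0.0353 without that library). Mrc1, the mannose receptor, differed by 0.07 ± 0.33 (adjusted p = 0.922). Igf1, a growth factor of macrophages and stroma, was lower without overlap at 139, 162, 202 and 180 CPM in IL-33 floxed lesions against 618, 282, 296 and 237 CPM in PBS deficient lesions. Its change was -1.07 ± 0.31 (adjusted p = 0.0259), lost without replicate 1, 2 or 4 of the IL-33 floxed lesions (0.0525 to 0.0771) or replicate 1 of the PBS deficient lesions (0.186). Of the 20 genes on the list 7 were called higher and 1 lower, with a median of 0.66. The 19 general macrophage and monocyte genes took 0.214% to 0.492% of counts in IL-33 floxed lesions and 0.356% to 0.913% in PBS deficient lesions.

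Of 11 measured chemokine genes of the type 2 list, 4 were called higher and 1 lower, with a median of -0.13. Ccl11, or eotaxin-1, had 15.2, 18.7, 35.9 and 19.7 CPM in IL-33 floxed lesions and 8.24, 6.64, 6.52 and 7.00 CPM in PBS deficient lesions. Ccl17, a ligand of CCR4, had 1.71, 1.87, 3.68 and 0.890 CPM in IL-33 floxed lesions and 0.267, 0.361, 0.539 and 0.298 CPM in PBS deficient lesions. Neither overlapped between groups, and the rises of 1.65 ± 0.35 (Ccl11, adjusted p = 0.00418) and 2.47 ± 0.60 (Ccl17, adjusted p = 0.0107) held without any single library but not without both replicates 3 (0.0529 and 0.0542). Ccl24, or eotaxin-2, was higher by 1.64 ± 0.48 (adjusted p = 0.0277) without overlap, and Ccl8, a monocyte and type 2 lymphocyte attractant, by 1.58 ± 0.45 (adjusted p = 0.0243) with overlap. The Ccl24 call was kept only without replicate 1 or 4 of the IL-33 floxed lesions and otherwise lost (0.0558 to 0.0816). The Ccl8 call was lost without replicate 3 of the IL-33 floxed lesions or replicate 1, 2 or 4 of the PBS deficient lesions (0.0537 to 0.0989). Ccl22, the other ligand of CCR4, had 5.01, 6.20, 14.9 and 5.02 CPM in IL-33 floxed lesions against 4.79, 4.81, 7.58 and 6.94 CPM in PBS deficient lesions (0.37 ± 0.44, adjusted p = 0.653). Cxcl13, a B cell attractant, was lower without overlap at 0.0809 to 0.632 CPM in IL-33 floxed lesions against 1.14 to 2.60 CPM in PBS deficient lesions. Its change was -2.65 ± 0.82 (adjusted p = 0.0377), -3.42 and still called without replicate 3 of the IL-33 floxed lesions, also called without replicate 4 of the PBS deficient lesions, and lost without any of the other 6 libraries (0.0564 to 0.115).

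The eosinophil list was led by ribonucleases while its general markers were not called. Rnase2a, an eosinophil-associated ribonuclease of the mouse, had 26.0, 50.3, 36.1 and 38.1 CPM in IL-33 floxed lesions and was at 0 in 3 of 4 PBS deficient lesions, with 0.0577 CPM in replicate 3. The 6448 reads against 3 gave a ratio of 2884 after scaling for depth (exact 95% counting interval 986 to 13989, adjusted p = 8.55e-07). Ear2, a related ribonuclease, had 16.0, 32.7, 32.5 and 24.4 CPM in IL-33 floxed lesions and 1.30, 1.78, 1.65 and 0.861 CPM in PBS deficient lesions. Both groups were tight, and the rise of 4.24 ± 0.41, or 18.9-fold (adjusted p = 9.05e-08), held in every alternative tried. Siglecf, the lectin that marks mouse eosinophils, had 4.09, 3.37, 4.73 and 3.08 CPM in IL-33 floxed lesions and 2.43, 2.55, 3.66 and 2.65 CPM in PBS deficient lesions, which overlapped (0.44 ± 0.34, adjusted p = 0.453). Prg2, the major basic protein of eosinophil granules, differed by 1.62 ± 0.65 (adjusted p = 0.108). Of the 9 measured eosinophil genes 2 were called higher and none lower, with a median of 1.56, and Epx was not analysed here. Eosinophil ribonucleases are close relatives, so reads may be shared among them, and alternatively activated macrophages of the mouse can express some of them.

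Among the other large rises was a collagen gene. Col6a5, which encodes an alpha chain of collagen VI and lies on chromosome 9 from 105856078 to 105960643 (GRCm38, minus strand), had 1541, 1526, 2303 and 1822 CPM in IL-33 floxed lesions and 21.1, 13.8, 11.5 and 13.4 CPM in PBS deficient lesions. The level was uniform within each group, and the rise was 6.91 ± 0.63, or 120-fold (adjusted p = 3.26e-08). Mrgprg, a Mas-related G protein-coupled receptor, had 2.53, 9.74, 14.5 and 7.71 CPM in IL-33 floxed lesions and no read in any PBS deficient lesion. Against a floor of 3 counts over that group, it was at least 655-fold higher (adjusted p = 0.000607, and 0.0701 with limma-voom). Car4, a membrane-bound carbonic anhydrase, had 38.4, 54.3, 61.5 and 33.0 CPM in IL-33 floxed lesions and 0.229, 1.20, 0.173 and 0.364 CPM in PBS deficient lesions. It rose by 6.60 ± 1.03 (adjusted p = 0.000353), and by 7.50 without replicate 2 of the PBS deficient lesions. The noncoding gene Gm49087 was higher by 6.76 ± 0.86 (adjusted p = 1.83e-05), with 430 reads in IL-33 floxed lesions against 5 in PBS deficient lesions. 4930542D17Rik, annotated antisense to Ccdc54, was higher by 5.28 ± 0.89 (adjusted p = 0.000872), and its reads cannot be assigned to a strand here. Ighg3, an immunoglobulin heavy chain constant gene, had 2.84, 46.8, 195 and 4.75 CPM in IL-33 floxed lesions and 0.623, 0.632, 1.37 and 0.629 CPM in PBS deficient lesions. The rise rested on replicates 2 and 3: its value of 6.26 ± 1.92 (adjusted p = 0.0359) was 4.47 without replicate 3, and the Ighg3 call was lost without any single library other than replicate 1 or 4 of the IL-33 floxed lesions (0.0595 to 0.106).

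Hydrogen peroxide-producing oxidases were also higher, genes picked out after their values were seen. Duox2, a dual oxidase, had 5.66, 18.9, 18.0 and 7.08 CPM in IL-33 floxed lesions and 0.432, 0.542, 0.443 and 0.497 CPM in PBS deficient lesions. Duox1, its neighbour on chromosome 2, had 7.75, 19.3, 20.1 and 7.77 CPM in IL-33 floxed lesions and 0.890, 0.632, 0.539 and 2.17 CPM in PBS deficient lesions. Both were separated between groups, by 4.69 ± 0.94 (Duox2, adjusted p = 0.0031) and 3.69 ± 0.83 (Duox1, adjusted p = 0.00623, with 4.31 without replicate 4 of the PBS deficient lesions). Duoxa1, which encodes the maturation factor of Duox1 and lies between them, was higher by 3.28 ± 0.73 (adjusted p = 0.0058). Smpd3, a neutral sphingomyelinase, had 36.5, 93.5, 84.2 and 41.3 CPM in IL-33 floxed lesions and 4.22, 3.12, 7.47 and 8.88 CPM in PBS deficient lesions (3.43 ± 0.51, adjusted p = 0.000221). Within the IL-33 floxed group, replicates 2 and 3 were the highest for all 4 of these genes.

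The 10 largest falls by the same rule were Mmp10, Ms4a4c, Cxcl13, Spp1, Cx3cr1, Gm6377, Cr2, Gm42793, Ptgs2 and Clec4e. Spp1, which encodes osteopontin, had 297, 290, 527 and 478 CPM in IL-33 floxed lesions and 1490, 853, 5205 and 2057 CPM in PBS deficient lesions. The groups did not overlap (-2.59 ± 0.55, adjusted p = 0.00447), and the change was -1.88 without replicate 3 of the PBS deficient lesions. Gm42793 (-2.34 ± 0.53, adjusted p = 0.00711, -1.68 without the same library, and 0.0751 without both replicates 3) overlaps Spp1 on the same strand, so its reads are not separate evidence. Cx3cr1, the fractalkine receptor of monocytes and macrophages, had 4.55, 3.45, 4.71 and 6.98 CPM in IL-33 floxed lesions and 35.9, 19.3, 30.2 and 27.8 CPM in PBS deficient lesions. It was lower by 2.52 ± 0.33 (log2 fold change -2.52, 5.74-fold, adjusted p = 2.17e-05) in every alternative. Mmp10, stromelysin-2, had 0.501, 0.877, 1.34 and 0.991 CPM in IL-33 floxed lesions and 3.34, 1.67, 14.1 and 8.15 CPM in PBS deficient lesions. Its change of -2.87 ± 0.59 (adjusted p = 0.00373) was -2.24 without replicate 3 of the PBS deficient lesions. Ms4a4c, an MS4A family membrane protein gene, changed by -2.71 ± 0.60 (adjusted p = 0.00561) and the predicted gene Gm6377 by -2.45 ± 0.46 (adjusted p = 0.00214). Cr2, complement receptor 2 of B cells and follicular dendritic cells, changed by -2.44 ± 0.70 (adjusted p = 0.0259), a call lost without replicate 1, 2 or 4 of the IL-33 floxed lesions or replicate 1 or 3 of the PBS deficient lesions (0.0582 to 0.0812).

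Of 11 measured genes of type 17 and acute inflammation, 4 were called lower (Il1b, Il6, Cxcl2 and Ptgs2) and none higher, with a median of -0.62. Il1b, the cytokine IL-1 beta, had 4.26, 3.71, 17.6 and 4.69 CPM in IL-33 floxed lesions and 28.1, 17.2, 57.1 and 41.1 CPM in PBS deficient lesions. Replicate 3 of the IL-33 floxed lesions just passed the lowest PBS deficient lesion, and the change was -2.25 ± 0.54 (adjusted p = 0.0104), and -3.09 without that replicate. Ptgs2, the inducible cyclooxygenase, had 2.84, 4.22, 4.94 and 5.42 CPM in IL-33 floxed lesions and 15.7, 10.8, 33.5 and 23.1 CPM in PBS deficient lesions. It was lower in every IL-33 floxed lesion (-2.25 ± 0.50, adjusted p = 0.0058). Clec4e, the lectin receptor Mincle, had 5.70, 7.90, 18.6 and 9.83 CPM in IL-33 floxed lesions and 28.97, 21.7, 93.1 and 43.5 CPM in PBS deficient lesions (-2.16 ± 0.49, adjusted p = 0.00731). Cxcl2, a neutrophil attractant, changed by -1.84 ± 0.56 (adjusted p = 0.0345), and its call was kept only without replicate 3 of the IL-33 floxed lesions or replicate 2 of the PBS deficient lesions (0.0577 to 0.127 otherwise). Of 15 neutrophil genes 2 were lower (Il1b and Cxcl2) and none higher, with a median of -0.08, where 4.86% of all genes were called lower. Of the 19 general macrophage and monocyte genes 2 were lower and none higher, with a median of -0.44. Besides Cx3cr1 this was Fcgr1, an Fc receptor of inflammatory macrophages (-1.38 ± 0.37, adjusted p = 0.0185), whose call was lost without replicate 1 (0.0611) or 2 (0.0692) of the IL-33 floxed lesions or replicate 3 of the PBS deficient lesions (0.0931).

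Among dendritic cell genes, Batf3, a transcription factor of conventional dendritic cells, had 7.04, 13.9, 11.8 and 7.77 CPM in IL-33 floxed lesions and 3.66, 2.19, 3.39 and 2.40 CPM in PBS deficient lesions. It was higher in every IL-33 floxed lesion (1.80 ± 0.32, adjusted p = 0.00158). Flt3, the growth factor receptor of dendritic cell precursors, was lower in every one of them (-1.19 ± 0.31, adjusted p = 0.0166), a call lost without replicate 1 (0.052) or 2 (0.0621) of the IL-33 floxed lesions or replicate 3 of the PBS deficient lesions (0.0807). These were the only calls among the 13 genes of that list.

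Apart from Col6a5, the called matrix genes were lower, among them small leucine-rich proteoglycans. Lum, or lumican, had 136, 102, 270 and 239 CPM in IL-33 floxed lesions and 691, 564, 942 and 523 CPM in PBS deficient lesions. Dcn, or decorin, had 308, 246, 750 and 521 CPM in IL-33 floxed lesions and 1109, 901, 1506 and 1049 CPM in PBS deficient lesions. Both were lower without overlap, by 1.87 ± 0.29 for Lum (log2 fold change -1.87, adjusted p = 0.000353) and 1.32 ± 0.28 for Dcn (log2 fold change -1.32, adjusted p = 0.00437). Thbs1, the matricellular protein thrombospondin-1, was lower by 1.18 ± 0.26 (log2 fold change -1.18, adjusted p = 0.00538) without overlap. Col12a1, a collagen that binds fibrils, changed by -1.18 ± 0.36 (adjusted p = 0.0338) with overlap, a call kept only without replicate 3 of the IL-33 floxed lesions or replicate 1 of the PBS deficient lesions (0.0542 to 0.124 otherwise). Col1a1, the main fibrillar collagen chain, had 12552, 13179, 24657 and 18837 CPM in IL-33 floxed lesions and 11363, 12641, 17384 and 13632 CPM in PBS deficient lesions, which overlapped (0.33 ± 0.27, adjusted p = 0.462). Postn, or periostin, a matricellular protein induced by IL-13, had 1486, 1135, 3209 and 1806 CPM in IL-33 floxed lesions and 642, 1107, 711 and 978 CPM in PBS deficient lesions. Those groups did not overlap, but the difference of 1.15 ± 0.40 did not pass the test (adjusted p = 0.0657). Of the 22 collagen and matrix genes 1 was called higher and 4 lower (4.62% and 4.86% of all genes), with a median of -0.27.

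The called matrix enzymes went both ways. Adamts4, a proteoglycan-cleaving enzyme, had 16.5, 21.7, 18.6 and 23.3 CPM in IL-33 floxed lesions and 41.4, 44.9, 62.3 and 48.7 CPM in PBS deficient lesions (-1.30 ± 0.22, adjusted p = 0.000811). Loxl4, a collagen cross-linking oxidase, had 5.99, 10.3, 14.5 and 10.3 CPM in IL-33 floxed lesions and 3.89, 4.11, 4.46 and 5.40 CPM in PBS deficient lesions (1.20 ± 0.28, adjusted p = 0.00762). In both genes the groups were separate, and the Loxl4 call was lost without both replicates 3 (0.0681). Loxl3, another such oxidase, was higher by 1.06 ± 0.33 (adjusted p = 0.04) and Mmp9, a gelatinase, changed by -1.54 ± 0.47 (adjusted p = 0.036), each without overlap. The Loxl3 call was kept only without replicate 1 of the IL-33 floxed lesions (0.0725 to 0.108 otherwise), and the Mmp9 call was lost without replicate 1, 2 or 4 of the IL-33 floxed lesions or replicate 1 or 3 of the PBS deficient lesions (0.0522 to 0.177). Loxl2 differed by -0.79 ± 0.28 (adjusted p = 0.0717, and 0.0263 without replicate 3 of the IL-33 floxed lesions). Of 18 matrix enzyme genes 2 were higher and 2 lower, where 4.62% and 4.86% of all genes were. Both calls among 13 TGF-beta and activin genes were receptors: Tgfbr1 was lower without overlap (-0.59 ± 0.15, adjusted p = 0.0149, and 0.0682 without replicate 3 of the PBS deficient lesions) and Tgfbr2 lower with overlap (-0.52 ± 0.15, adjusted p = 0.0274). The Tgfbr2 call was lost without replicate 1, 2 or 4 of the IL-33 floxed lesions or replicate 1 or 3 of the PBS deficient lesions (0.0654 to 0.0995).

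The called vessel genes went both ways. Vwf, the von Willebrand factor of endothelium, had 485, 393, 491 and 480 CPM in IL-33 floxed lesions and 174, 183, 192 and 203 CPM in PBS deficient lesions. It was higher in every IL-33 floxed lesion (1.30 ± 0.23, adjusted p = 0.00122). Plvap, a protein of fenestrated vessels, was higher by 1.04 ± 0.26 (adjusted p = 0.012, with 0.0609 without replicate 3 of the IL-33 floxed lesions and 0.0501 without replicate 1 of the PBS deficient lesions), and Flt1, a VEGF receptor, by 0.59 ± 0.16 (adjusted p = 0.018, with 0.0503 without replicate 2 of the IL-33 floxed lesions and 0.0646 without replicate 1 of the PBS deficient lesions). Kdr, the main signalling VEGF receptor, was lower without overlap at 64.5, 41.3, 84.3 and 60.6 CPM in IL-33 floxed lesions against 90.0, 97.5, 99.9 and 98.5 CPM in PBS deficient lesions. Its change was -0.62 ± 0.18 (adjusted p = 0.0288), a call kept only without replicate 3 of the IL-33 floxed lesions (0.0511 to 0.127 otherwise). Of 16 endothelial genes 3 were higher and 1 lower (4.62% and 4.86% of all genes), with a median of -0.17.

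**Figure D3:**
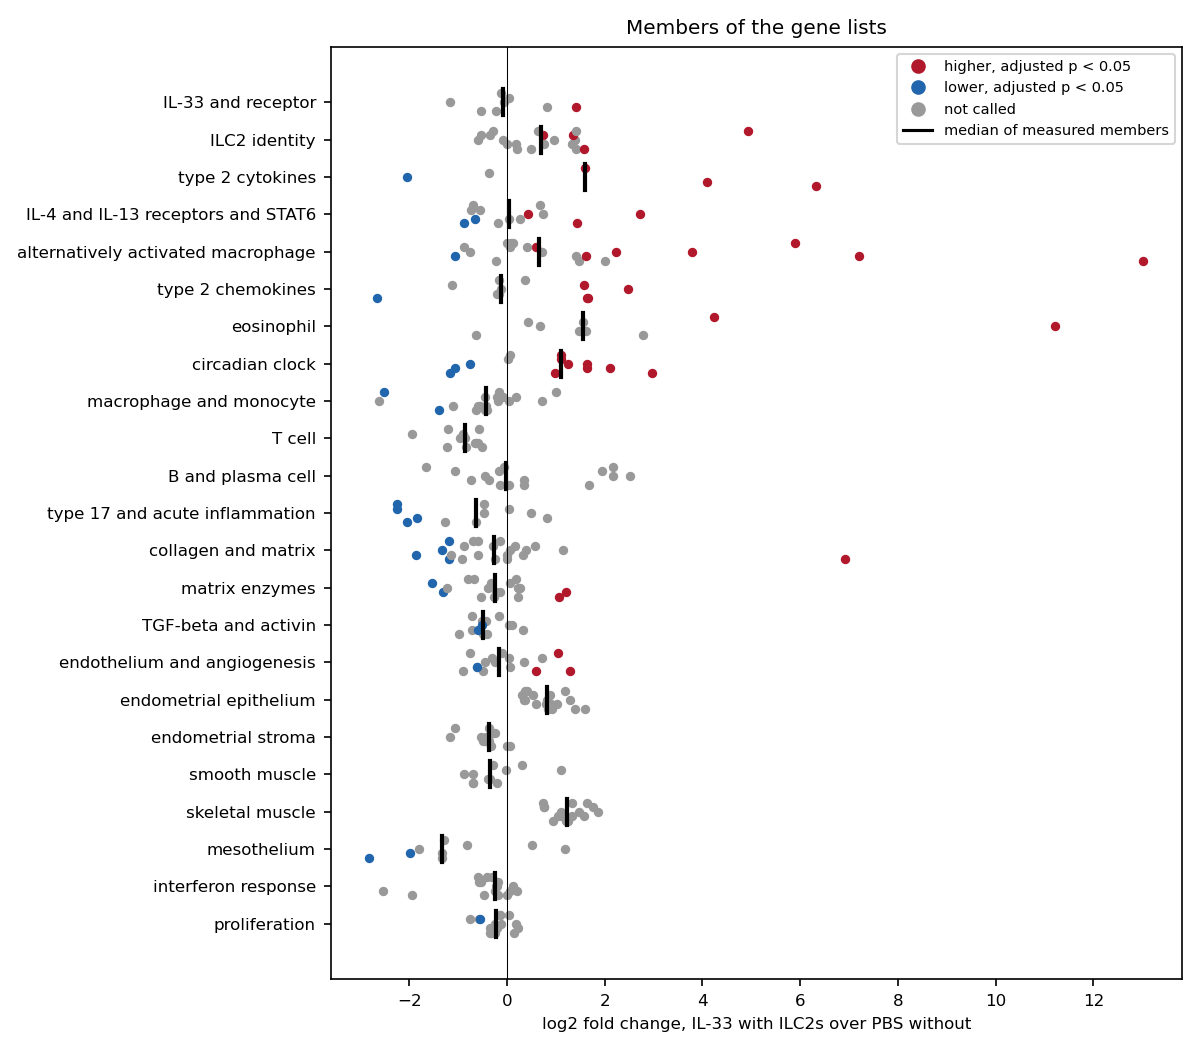
Log2 fold changes of IL-33 floxed over PBS deficient lesions (horizontal axis) for the measured members of 23 gene lists (rows), with called rises in red, called falls in blue, other members in grey and black bars for list medians. The type 2, macrophage and eosinophil lists spread furthest to the right, by single members (fitted values of Chil4, Rnase2a and Il13 rest on few reads in PBS deficient lesions), and the clock list has calls on both sides.

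Genes of the other cell and tissue types held few calls, where 4.62% of all genes were called higher and 4.86% lower. Epithelial genes had a median of 0.82 with no call among 18; Ltf, the estrogen-driven lactoferrin, ranged from 25.6 to 1587 CPM in IL-33 floxed lesions and from 132 to 934 CPM in PBS deficient lesions. Stromal genes had no call among 13, and of 12 measured estrogen response genes 2 were lower: Igf1, described above, and Clca3a1, a calcium-activated chloride channel regulator (-1.27 ± 0.27, adjusted p = 0.00427). Greb1, a growth regulator induced by estrogen, differed by -0.80 ± 0.62 (adjusted p = 0.447). Mesothelial genes had 2 lower of 9 and a median of -1.33. Gpm6a, a membrane glycoprotein, had 2.38, 1.67, 5.36 and 3.70 CPM in IL-33 floxed lesions against 7.87, 6.46, 19.3 and 18.3 CPM in PBS deficient lesions (-1.98 ± 0.43, adjusted p = 0.00496). Muc16, the mucin known as CA125 in humans, changed by -2.82 ± 0.80 (adjusted p = 0.0246) with overlap, a call lost without replicate 1, 2 or 4 of the IL-33 floxed lesions or replicate 3 of the PBS deficient lesions (0.0551 to 0.0895). None of the 17 skeletal muscle genes was called, and their median was 1.24. Of the 17, 12 were higher in every IL-33 floxed lesion, against 14.1% of all genes. They share a tissue whose part of the counts differed between the groups, so they are not separate observations. The 12 T cell genes had a median of -0.85 and no call, while their summed share of counts was 0.00135% to 0.00269% in IL-33 floxed lesions and 0.00285% to 0.00516% in PBS deficient lesions. No call was made among regulatory T cell, B and plasma cell, NK, mast cell and basophil, resident peritoneal macrophage, smooth muscle, adipocyte, liver, interferon, nerve, complement and blood genes; Irf7, an interferon regulator, differed by -0.25 ± 0.52 (adjusted p = 0.817). Of 16 proliferation genes 1 was lower, Pcna, the DNA replication clamp (-0.55 ± 0.16, adjusted p = 0.0308), and Bub1, a mitotic checkpoint kinase, differed by -0.76 ± 0.36 (adjusted p = 0.173). The Pcna call was lost without replicate 1, 2 or 4 of the IL-33 floxed lesions or replicate 1 or 3 of the PBS deficient lesions (0.0503 to 0.117).

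Circadian clock genes were called on both sides, with output genes higher and activators lower. The hour of collection was not among the sample details used here, and the skeletal muscle share was not in the fit. The part of either in these changes was not tested. The clock is a loop in which the activators encoded by Arntl (also called Bmal1), Clock and Npas2 drive the repressors of the Per, Cry and Nr1d families and the output factors Dbp, Tef and Ciart. Dbp, an output transcription factor, had 114, 63.1, 101 and 101 CPM in IL-33 floxed lesions and 12.8, 18.3, 5.98 and 11.4 CPM in PBS deficient lesions. Per3, a period gene, had 141.2, 94.98, 134.6 and 109 CPM in IL-33 floxed lesions and 26.5, 40.9, 19.0 and 25.0 CPM in PBS deficient lesions. Arntl had 16.0, 26.5, 15.2 and 17.9 CPM in IL-33 floxed lesions and 39.6, 42.7, 41.1 and 46.3 CPM in PBS deficient lesions. None of these 3 genes overlapped between groups, with Dbp and Per3 high and Arntl low in every IL-33 floxed lesion. The changes were 2.97 ± 0.29 for Dbp, or 7.84-fold (adjusted p = 9.05e-08), 2.11 ± 0.19 for Per3 (adjusted p = 3.26e-08) and -1.17 ± 0.16 for Arntl (adjusted p = 3.93e-05), and all 3 held in every alternative.

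Of 13 measured clock genes 8 were called higher and 3 lower, with a median of 1.11. The output factors Tef and Ciart rose by 1.63 ± 0.30 (adjusted p = 0.00185) and 1.64 ± 0.24 (adjusted p = 0.000221), and Nr1d2, a nuclear receptor that represses Arntl, by 1.12 ± 0.21 (adjusted p = 0.00222). Nr1d1, its relative, had 96.2, 73.7, 104.2 and 108 CPM in IL-33 floxed lesions and 40.2, 57.6, 18.5 and 45.2 CPM in PBS deficient lesions. The groups were separate (1.24 ± 0.34, adjusted p = 0.0205), but the Nr1d1 call was lost without replicate 4 of the IL-33 floxed lesions (0.0504) or replicate 1 (0.0612) or 3 (0.0787) of the PBS deficient lesions. The repressors Cry2 and Per2 rose by 1.11 ± 0.23 (adjusted p = 0.00327) and 0.99 ± 0.25 (adjusted p = 0.0127), and the Per2 call was lost without both replicates 3 (0.0897). The activators Clock and Npas2 fell by 0.75 ± 0.11 (log2 fold change -0.75, adjusted p = 0.000275) and 1.07 ± 0.19 (log2 fold change -1.07, adjusted p = 0.00185). Per1 and Cry1 differed by 0.07 ± 0.35 (adjusted p = 0.928) and 0.01 ± 0.16 (adjusted p = 0.973).

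**Figure D4:**
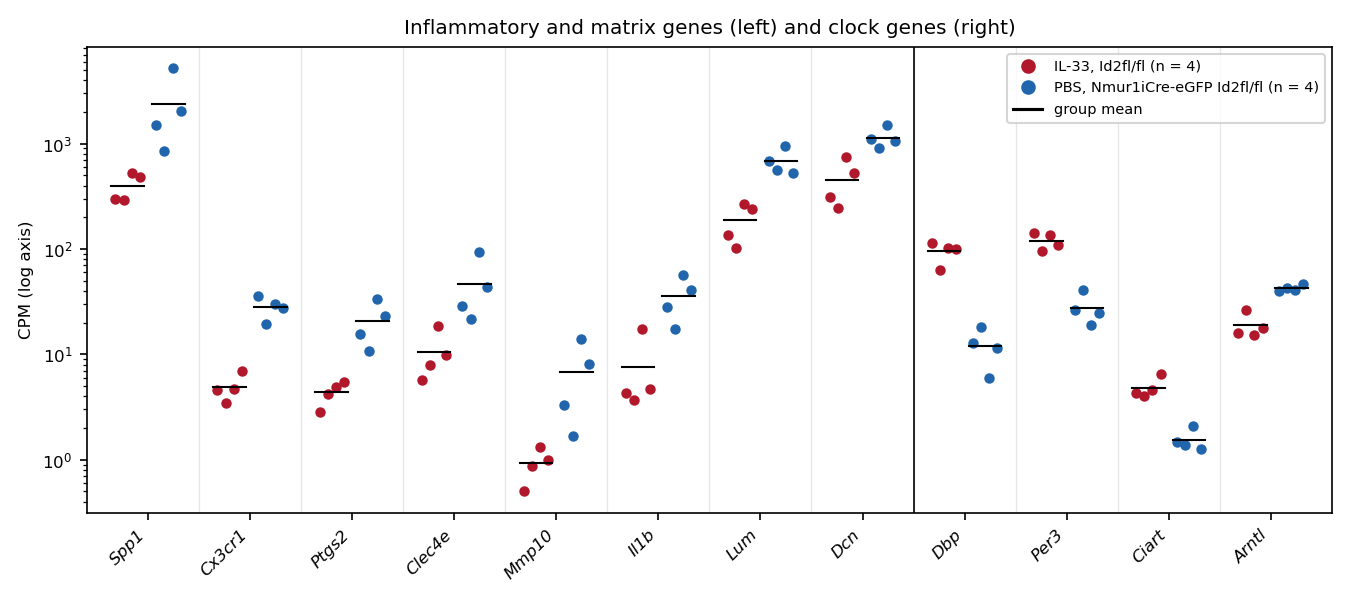
Levels of 8 inflammatory and matrix genes (left of the line) and 4 clock genes (right of it) in each of the 8 lesions, in CPM on a log axis, with IL-33 floxed lesions in red left of PBS deficient lesions in blue and black lines for group means. The inflammatory and matrix genes are lower in IL-33 floxed lesions, with 1 red point of Il1b (17.6 CPM) just above the lowest blue point (17.2 CPM), and Dbp, Per3 and Ciart are higher while Arntl is lower.

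Smaller changes of stress and mitochondrial genes were single. Trib3, a pseudokinase of the amino acid stress response, was higher without overlap by 1.54 ± 0.39 (adjusted p = 0.0141, with 0.056 without replicate 2 of the IL-33 floxed lesions and 0.0588 without replicate 1 of the PBS deficient lesions) and was the single call among 14 genes of that response. Jun, an immediate early transcription factor, was higher without overlap by 0.67 ± 0.18 (adjusted p = 0.0198, with 0.0521 without replicate 3 of the IL-33 floxed lesions and 0.0747 without replicate 1 of the PBS deficient lesions) and was the single call among 12. Cox7a2l, a factor that joins respiratory chain complexes and was picked out after its values were seen, had 54.2, 66.9, 51.3 and 52.6 CPM in IL-33 floxed lesions and 36.3, 43.0, 40.5 and 38.3 CPM in PBS deficient lesions. It was 1.42-fold higher in a narrow range (0.51 ± 0.10, adjusted p = 0.00352) in every alternative. Of 9 mitochondrially encoded transcripts 1 was called, mt-Co2 (1.19 ± 0.33, adjusted p = 0.0199), lost without replicate 4 of the IL-33 floxed lesions (0.0675) or replicate 1 (0.0605) or 3 (0.0773) of the PBS deficient lesions.

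The same genes were set beside groups given IL-33 with and without ILC2s. All the following contrasts share the PBS deficient lesions or the IL-33 floxed lesions, so their values are given side by side and no overlap of them is a result. Against PBS deficient lesions, 890 genes were called in Cre controls (4.19%; 572 or 2.69% higher and 318 or 1.5% lower), 1178 in wild type (5.54%; 709 or 3.34% higher and 469 or 2.21% lower), 6 in deficient lesions given 250000 ILC2s (0.0282%), 2 in deficient lesions given IL-33 alone (0.00941%) and 5 in those with added PBS (0.0235%). At an unadjusted p under 0.05 the last 3 groups had 517 (2.43%), 1436 (6.76%) and 1709 (8.04%) genes. Between IL-33 floxed lesions and deficient lesions given IL-33, 1817 genes were called (8.55%; 820 or 3.86% higher and 997 or 4.69% lower). Replicate 3 of the Cre controls, replicate 4 of wild type and replicate 2 of the deficient lesions given IL-33 held liver genes at 6.33%, 6.69% and 2.88% of counts. Leaving out these and 1 further such library gave 724, 878, 5, 0 and 4 calls in the same order, and 1513 in the last contrast.

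A few type 2 genes were called after IL-33 without ILC2s. Col6a5 averaged 1798 ± 363 CPM in IL-33 floxed lesions, 1927 ± 221 in Cre controls, 2028 ± 627 in wild type, 466 ± 442 after 250000 ILC2s, 170 ± 91.3 in deficient lesions given IL-33, 293 ± 133.997 with added PBS and 14.9 ± 4.20 in PBS deficient lesions (SD, n = 4 each). Its change against PBS deficient lesions was 3.51 ± 0.53 in deficient lesions given IL-33 (adjusted p = 0.00448, and 0.0703 without the liver-bearing libraries), 4.30 with added PBS (adjusted p = 0.00013) and 4.96 after 250000 ILC2s (adjusted p = 1.41e-05). Between IL-33 floxed lesions and deficient lesions given IL-33 it differed by 3.40 (adjusted p = 0.000729). Col6a5 was thus called above PBS deficient lesions in each of these groups, for IL-33 alone only with the liver-bearing libraries kept, and was higher in IL-33 floxed lesions than in deficient lesions given IL-33. After 250000 ILC2s, replicate 3 had 1066 CPM of Col6a5 and replicates 1, 2 and 4 had 139, 529 and 129. Rnase2a averaged 37.6 ± 10.01 CPM in IL-33 floxed lesions, 11.6 ± 15.8 after 250000 ILC2s, 2.59 ± 1.55 in deficient lesions given IL-33, 7.75 ± 7.56 with added PBS and 0.0144 ± 0.0289 in PBS deficient lesions. It was called in each of these contrasts, with adjusted p = 0.00452 for IL-33 alone (0.0739 without the liver-bearing libraries). Ear2 averaged 26.4 ± 7.93 CPM in IL-33 floxed lesions, 7.35 ± 3.14 after 250000 ILC2s, 4.63 ± 2.26 in deficient lesions given IL-33, 9.997 ± 4.499 with added PBS and 1.40 ± 0.414 in PBS deficient lesions. It was called with added PBS (2.84, adjusted p = 0.000216) and after 250000 ILC2s (2.39, adjusted p = 0.0031), and not after IL-33 alone (1.73 ± 0.38, adjusted p = 0.248). In deficient lesions given IL-33 alone, Ear2 (1.98 to 7.29 CPM) still lay above every PBS deficient lesion (at most 1.78 CPM).

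Il13, Il5, Retnla and Chil3 did not pass the test between deficient lesions given IL-33 alone and PBS deficient lesions, and did between IL-33 floxed lesions and deficient lesions given IL-33. Missing the test does not show that they were unchanged. Retnla (19.2 to 108 CPM) and Il13 (0.0306 to 0.0869 CPM) in deficient lesions given IL-33 lay above every PBS deficient lesion (at most 13.6 and 0.0226 CPM). Chil3 overlapped between these groups. Il13 averaged 0.928 ± 0.332 CPM in IL-33 floxed lesions, 2.51 ± 0.845 in Cre controls, 1.11 ± 0.442 in wild type, 0.190 ± 0.200 after 250000 ILC2s, 0.0538 ± 0.0239 in deficient lesions given IL-33, 0.134 ± 0.0964 with added PBS and 0.00978 ± 0.0116 in PBS deficient lesions. In deficient lesions given IL-33 it did not pass the test against PBS deficient lesions (adjusted p = 0.62), nor with added PBS (adjusted p = 0.141), and after 250000 ILC2s it did (adjusted p = 0.0228, and 0.0675 without the liver-bearing libraries). After 250000 ILC2s, replicate 3 had 0.484 CPM of Il13 and replicates 1, 2 and 4 had 0.0955, 0.0414 and 0.140. Il5 differed by 0.49 between deficient lesions given IL-33 and PBS deficient lesions (adjusted p = 0.97) and by 3.61 between IL-33 floxed lesions and deficient lesions given IL-33 (adjusted p = 0.000976). Retnla averaged 865 ± 397 CPM in IL-33 floxed lesions, 193 ± 296 after 250000 ILC2s, 59.9 ± 36.5 in deficient lesions given IL-33, 164 ± 73.8 with added PBS and 5.89 ± 5.29 in PBS deficient lesions. Against PBS deficient lesions its change was called after 250000 ILC2s (5.03, adjusted p = 0.016) and with added PBS (4.79, adjusted p = 0.0287, and 0.0709 without the liver-bearing libraries). After IL-33 alone the Retnla change was 3.34 ± 0.83 (adjusted p = 0.528). Among the lesions given 250000 ILC2s, replicate 3 had 636 CPM of Retnla and replicates 1, 2 and 4 had 42.2, 70.6 and 21.6. Chil3 averaged 1006 ± 330 CPM in IL-33 floxed lesions, 44.5 ± 28.1 in deficient lesions given IL-33 and 16.8 ± 26.4 in PBS deficient lesions, and differed by 4.50 between IL-33 floxed lesions and deficient lesions given IL-33 (adjusted p = 0.00855) and by 1.40 between deficient lesions given IL-33 and PBS deficient lesions (adjusted p = 0.874).

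Some genes stood lower in IL-33 floxed lesions than their means in the other competent genotypes. Il1rl1 averaged 17.9 ± 4.17 CPM in IL-33 floxed lesions, 56.6 ± 41.2 in Cre controls and 33.1 ± 5.45 in wild type, against 6.74 ± 3.69 in PBS deficient lesions. Its difference between IL-33 floxed lesions and deficient lesions given IL-33 was 0.87 (adjusted p = 0.181). Arg1, not called in IL-33 floxed lesions, was called in Cre controls (3.45, adjusted p = 0.00462) and wild type (3.19, adjusted p = 0.00699), while in deficient lesions given IL-33 it differed by 1.34 from PBS deficient lesions (adjusted p = 0.743), and IL-33 floxed lesions differed from deficient lesions given IL-33 by 0.08 (adjusted p = 0.951). Il2ra was called in Cre controls and wild type (2.51, adjusted p = 0.000781, and 2.86, adjusted p = 0.000185). Differences between the competent genotypes were not tested here.

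Among the falls, Cx3cr1 averaged 4.92 ± 1.48 CPM in IL-33 floxed lesions, 8.77 ± 2.66 in Cre controls, 9.03 ± 2.42 in wild type, 20.5 ± 8.16 after 250000 ILC2s, 20.8 ± 4.37 in deficient lesions given IL-33, 23.9 ± 3.31 with added PBS and 28.3 ± 6.89 in PBS deficient lesions. It was called lower against PBS deficient lesions in Cre controls (-1.69, adjusted p = 0.00165) and wild type (-1.65, adjusted p = 0.0018), and lower in IL-33 floxed lesions than in deficient lesions given IL-33 (-2.08, adjusted p = 0.000701). Spp1 averaged 398 ± 122.3 CPM in IL-33 floxed lesions, 1625 ± 781 in Cre controls, 940 ± 181 in wild type, 2180 ± 870 in deficient lesions given IL-33 and 2401 ± 1933 in PBS deficient lesions. Its contrast against PBS deficient lesions was not called in Cre controls (-0.56, adjusted p = 0.57) or wild type (-1.35, adjusted p = 0.115). Of the other large falls, Mmp10 (0.19 and 0.132), Cxcl13 (0.541 and 0.977), Gm6377 (0.0901 and 0.316), Cr2 (0.0883 and 0.114) and Clec4e (0.331 and 0.0861) were called in neither. Gm42793 (0.338 and 0.00995) and Ptgs2 (0.0934 and 0.0478) were called lower in wild type only, Ptgs2 not without the liver-bearing libraries (0.0861). Ms4a4c was called lower in both (0.0175 and 0.0035). Dbp ranged from 63.1 to 114 CPM in IL-33 floxed lesions, 37.6 to 54.3 in Cre controls, 19.0 to 32.2 in wild type, 14.9 to 39.7 in deficient lesions given IL-33, 9.38 to 17.3 with added PBS and 5.98 to 18.3 in PBS deficient lesions. The lowest IL-33 floxed lesion lay above the highest lesion of each of these groups, a difference not tested here apart from that against PBS deficient lesions. Against PBS deficient lesions, Clock changed by -0.42 in Cre controls (adjusted p = 0.0303) and -0.03 in wild type (adjusted p = 0.912). Npas2 (0.108 and 0.0613) and Nr1d1 (0.188 and 0.266) were called in neither. Nr1d2 was called in Cre controls (0.0489) and not in wild type (0.0691). Per2, Cry2 and Tef were called in both, but in Cre controls not without the liver-bearing libraries (0.149, 0.13 and 0.082).

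**Figure D5:**
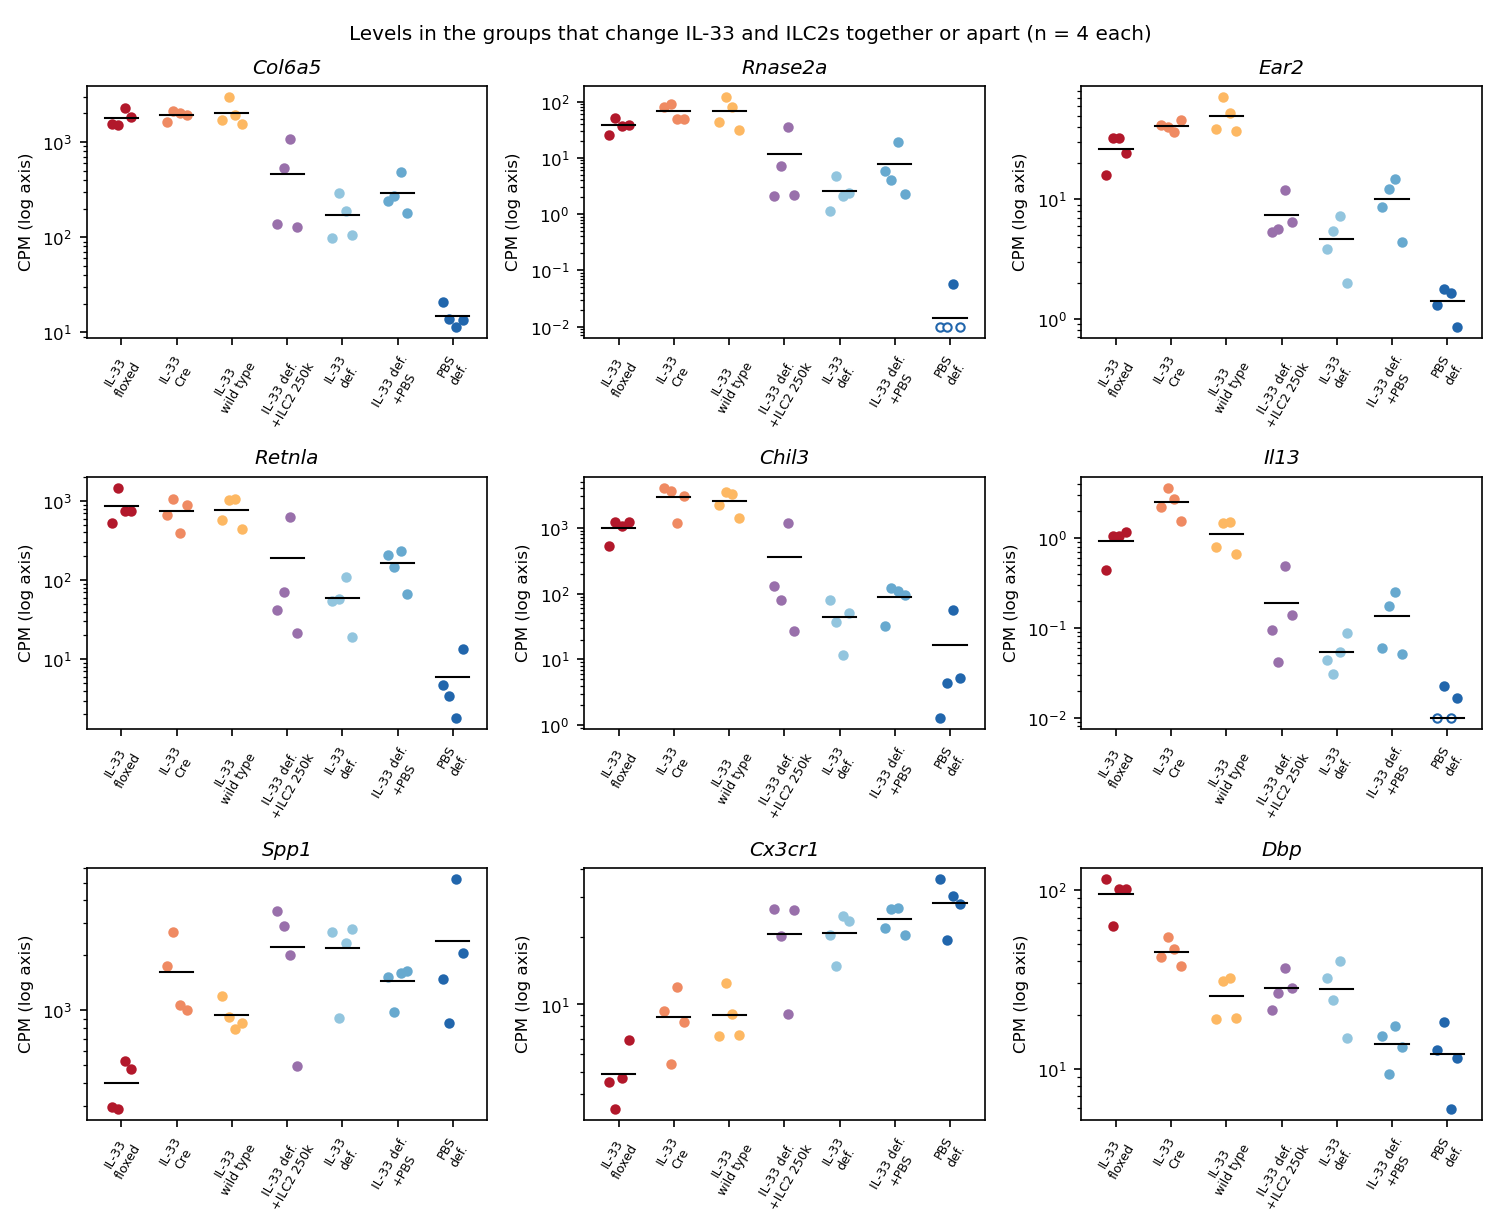
Levels of 9 genes in 7 groups of 4 lesions, in CPM on log axes, ordered from IL-33 floxed lesions (red, left) through Cre controls, wild type, deficient lesions given 250000 ILC2s, given IL-33 and given IL-33 with added PBS to PBS deficient lesions (dark blue, right), with black lines for means and open points at or below 0.01 CPM. The means of Col6a5, Rnase2a, Ear2 and Retnla step down from the 3 competent genotypes to the deficient groups given IL-33 and again to PBS deficient lesions, while Dbp is higher in every IL-33 floxed lesion than in any lesion of the other groups.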

How the data were processed

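RNA from snap-frozen lesions was made into libraries with a NEBNext UltraExpress kit, per the labels. The deposited values are whole-number read counts per gene, made by the authors with Trimmomatic, STAR and HTSeq on GRCm38, per the submitters' processing notes, which also name edgeR and limma; the annotation, the strand setting and versions are not given in the sources used here. No gene in the table has a total under 411 over the 41 libraries, so genes of low total were not analysed here.

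One model per gene, with a mean for each group, was fitted to the counts of all 41 libraries by the quasi-likelihood method of edgeR 4.0.16 under R 4.3.3, after TMM scaling, and p-values were adjusted over 21249 genes by Benjamini-Hochberg. filterByExpr removed 0 genes. A called gene has an adjusted p under 0.05, CPM are TMM-scaled, and the SE was computed as the absolute log2 fold change over √F, where F is the test statistic. Fits with limma 3.58.1 (voom) and DESeq2 1.42.0, other scalings and filters, the 8 libraries alone, a replicate block, each library left out in turn and the 4 liver-bearing libraries left out were alternatives. Counting intervals and floors cover counting error only, and no level was compared between genes.

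Nothing in the labels says that the replicates are separate mice; the p-values therefore reflect only how these samples vary, and that spread may be technical. Counts of every replicate pair differed by more than sampling noise, with 39.5 to 365 as the chi-square per degree of freedom. Replicate numbers come from the labels, and nothing there says that a number is shared between groups. Deviations of same-numbered lesions correlated at 0.142, 0.186, 0.508 and 0.207. The block fits treated the numbers as pairing the samples, as an alternative only. Some differently numbered lesions correlated as much or more (IL-33 floxed 1 with PBS deficient 2 at 0.433, IL-33 floxed 2 with PBS deficient 1 at 0.203). The correlations therefore do not show that the numbers are pairs.

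Named genes were 37 panel genes, members of 38 gene lists (liver left out), and the 10 largest called rises and falls among genes with a mean of at least 1 CPM and separate groups. From each list came the called members with the smallest adjusted p. Where none was called, the members with the lowest and highest change were named. The members and lists were chosen with earlier results of these data known. Duox1, Duox2, Duoxa1, Cox7a2l, Smpd3, Cd163, Col12a1, Clock, Npas2, Per2, Cry2, Nr1d1, Nr1d2, Tef, Per1 and Cry1 were picked after their values were seen, and so were the comparisons of other groups without the liver-bearing libraries. Gene positions are GENCODE M21 on GRCm38 (20769 symbols at 1 position, 42 at several). Promoters were read and aligned with Biopython 1.88, and figures drawn with matplotlib 3.10.9. Scripts were tested on simulated data.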

Additional observations from a re-analysis of the deposited data

Results flagged for a closer look

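In 264 groups of 4 lesions (2 groups for each named gene), 15 had a lesion far from the other 3 by Dixon's 95% criterion; chance gives about 1 in 20 groups. Among IL-33 floxed lesions, replicate 1 was low for Il13 (0.438 CPM, others 1.05 to 1.17) and Crlf2 (37.3 CPM, others 51.5 to 55.0). Replicate 2 was high for Cish (47.8 CPM, others 25.2 to 27.6) and Trib3 (9.57 CPM, others 5.77 to 6.28) and low for Vwf (393 CPM, others 480 to 491). Replicate 3 was high for Il1b (17.6 CPM, others 3.71 to 4.69) and Cd28, a T cell co-receptor (4.94 CPM, others 2.33 to 2.61).

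Among PBS deficient lesions, replicate 3 was high for Il2ra (5.50 CPM, others 2.19 to 2.45), Ighg3 (1.37 CPM, others 0.623 to 0.632) and Rnase2a (0.0577 CPM, others at 0), and low for Cish (9.28 CPM, others 12.3 to 12.7) and Des, the muscle filament desmin (265 CPM, others 918 to 1119). Replicate 1 was low for Jun (90.2 CPM, others 105 to 106), replicate 2 for Kit, a mast cell receptor (23.3 CPM, others 30.8 to 31.7), and replicate 4 for Ccl24 (1.94 CPM, others 2.37 to 2.39).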

How the results depend on the processing

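The number of called genes was 2076 with DESeq2 size factors, 1830 with upper-quartile scaling, 2984 with the DESeq2 test, 2378 with limma-voom, 2192 of 16589 genes at 1 CPM or more, 2565 from the 8 libraries alone and 2943 without the liver-bearing libraries, against 2014. limma-voom ended the calls of Nmur1, Chil4, Ccl24, Mrgprg, Ighg3, Cxcl13, Il6, Socs3 and Muc16 (adjusted p 0.0515 to 0.355), upper-quartile scaling those of Il1rl1, Klrg1, Crlf2, Tyk2 and Loxl3 (0.050 to 0.0703), and the 8 libraries alone those of Il13ra1, Ccl8, Crlf2, Il6, Tyk2, Socs3, Tgfbr2, Kdr, Igf1 and Col12a1 (0.053 to 0.122). Falls numbered 1636 with the DESeq2 test and rises 1495 without the liver-bearing libraries. The replicate block gave 1933 calls (954 higher, 979 lower) and, with the 8 libraries alone, 2898; it ended the call of Il13ra1 (adjusted p = 0.0589) and of no other named gene in the fit of all libraries. With the 8 libraries alone the block also gave adjusted p-values of 0.0503 for Ighg3, 0.053 for Tslp, 0.0945 for Igf1, 0.0563 for Kdr, 0.052 for Tgfbr2, 0.0573 for Muc16, 0.0661 for Nr1d1 and 0.0535 for Npas2.

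Leaving out 1 of the 8 libraries gave 680 to 1884 calls, 298 to 789 higher and 382 to 1095 lower. Without both replicates 3, an alternative chosen after seeing the data, 860 genes were called, 402 higher and 458 lower, and 27 named calls ended, among them Ccl11, Ccl17, Clec10a, Cd163, Loxl4, Gm42793, Plvap, Flt1, Jun, Per2 and Nr1d1 (0.0529 to 0.129). No gene called in both fits changed sign in any alternative. Genes not called changed sign: Stat6 (-0.012 with upper-quartile scaling), Ltf (-0.40 with limma-voom, -0.39 with the block on 8 libraries), Elf3 (-0.49 and -0.23 in those fits) and Ccl22 (-0.028 without both replicates 3). With 1 library left out they spanned -0.034 to 0.17 for Stat6, -0.22 to 0.40 for Mrc1, -0.16 to 0.53 for Ccl22, -0.54 to 0.71 for Ltf, -0.51 to 2.01 for Elf3, -0.13 to 0.31 for Vim, -1.30 to 0.14 for Retn and -0.31 to 0.42 for Oas2. The cause of these differences was not tested. Depth limits Il5, Il13 and Nmur1, with 6, 2 and 5 reads in PBS deficient lesions.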
